A study of Homo sapiens with 28 samples.

Results

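Wild-type cells of the human embryonic stem cell line H9 were compared between day 8 and day 4 of neural differentiation under the culture label CT0.4. The 4 libraries were chosen by their labels, 2 per day, out of 28 libraries in the series. The labels explain neither the letters CT nor the unit of the number after them. The day 4 and day 8 libraries are labelled as neural progenitor cells made from ES cells, wild type for SOX1, with poly(A) RNA. Other groups are described mainly where the change over time is compared. They are wild type under CT1.0, wild type under IWP2 (an inhibitor of WNT secretion), and cells without SOX1 (SOX1-/-, KO) under CT0.4. Each has 2 libraries per day at day 4 and day 8. In the main fit the spread behind every p-value was estimated from all 28 libraries, which also hold KO ES cells and KO cells under IWP2 and CT1.0. Undifferentiated wild-type ES cells (day 0, 2 libraries) give the starting level. Wild-type libraries are numbered 1 and 2 and KO libraries 26 and 48. The labels do not say whether the numbers stand for clones, cultures or repeats, so p-values measure only the spread between these libraries. Every library is a bulk sample, in which fewer cells of a type and less RNA per cell cannot be told apart.

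The values are TPM, transcript abundances that scale each gene by its length and each library to a fixed total. Of 58219 genes, 19745 had a TPM of at least 1 in 2 or more of the 4 libraries and were tested with limma. The test used log2(TPM + 1), on which changes of low genes are understated. Each log2 change is day 8 minus day 4 with its standard error from the model. As deposited, 5756 genes (29.2%) were higher at day 8 and 1521 (7.7%) lower at an adjusted p under 0.05, 36.9% in all, and the median log2 change over all genes tested was 0.27. The day 4 libraries had 17891 and 18233 genes at a TPM of at least 1 against 19620 and 19856 at day 8, and ribosomal protein genes took 26.2 to 28% of TPM at day 4 against 17.4 to 17.9% at day 8. Scaling the columns by the median ratio brought the median change to 0.014 and the calls to 3323 higher (16.8%) and 3329 lower (16.9%). The part of the ribosomal protein share in the changes of single genes was not tested. In what follows a gene "rose" or "fell" only if it was called in the same direction both as deposited and after median-ratio scaling, which 16.8% of tested genes did upward and 7.7% downward, 24.5% in all. Of those, 2234 genes rose and 483 fell by at least 1 on the log2 scale (11.3% and 2.45% of genes tested).

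Cells at both days carried neural progenitor transcripts, and the label was checked first. SOX2, a transcription factor of neural and pluripotent cells, was at 324 and 332 TPM at day 4 and at 109 and 149 TPM at day 8. PAX6, a neural progenitor factor, was at 64.1 and 68.4 TPM at day 4 and at 353 and 406 TPM at day 8, and the neural cadherin gene CDH2 was at 200.4 and 203 TPM and then at 536 and 545 TPM. POU5F1, the pluripotency factor, was at 46.5 and 34.1 TPM at day 4 and at 1.47 and 0.82 TPM at day 8. PAX6 and CDH2 were thus present at day 4 beside a remainder of POU5F1 and were higher at day 8, when POU5F1 was near 1 TPM. They do not stand for their whole list: of 19 neural progenitor genes 9 rose and 3 fell, as described below. SOX1, the gene removed in the KO cells, was at 0.264 and 0.177 TPM in wild-type ES cells, at 4.88 and 7.01 TPM at day 4 and at 11.3 and 15.7 TPM at day 8. Its change of 1.06 ± 0.36 passed as deposited (adjusted p 0.03) and not after scaling (0.79, adjusted p 0.101). In KO cells under CT0.4 SOX1 was at 0.866 and 1.49 TPM at day 4 and at 0.813 and 2.09 TPM at day 8, below both wild-type days.

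The roof plate is a strip of cells at the dorsal midline of the neural tube that secretes WNT and BMP proteins and so patterns the dorsal tissue beside it. In the midbrain it expresses WNT1, LMX1A, MSX1 and GDF7. WNT proteins are acylated by PORCN and carried to the surface by WLS, bind Frizzled receptors and act through TCF/LEF factors on targets such as AXIN2, while secreted antagonists such as DKK1, SFRP1 and FRZB limit them. BMP proteins act through SMAD factors on the ID genes. PAX2, EN1 and FGF8 mark the midbrain and its boundary with the hindbrain, which secretes FGF8.

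Promoter sequences of 4 genes of the WNT and BMP lists are shown from RefSeq (build GRCh38.p14). They run 5′ to 3′ on the strand of the gene and are the 250 bases before the transcription start. Of 4 motifs searched, 2 are marked in capitals. One is the TCF/LEF core, CTTTGA, on both strands, so that its reverse complement is marked too. The other is the GC box bound by SMAD factors, GGCGCC, which reads the same on both strands. In these windows no match of the core overlaps one of the box. They are shown because WNT3A and BMP4 are ligands that rose, DKK1 is a WNT antagonist and target that fell, and SP5 is a WNT target that did not pass the test.
WNT3A (chr1:228006748-228006997, plus strand): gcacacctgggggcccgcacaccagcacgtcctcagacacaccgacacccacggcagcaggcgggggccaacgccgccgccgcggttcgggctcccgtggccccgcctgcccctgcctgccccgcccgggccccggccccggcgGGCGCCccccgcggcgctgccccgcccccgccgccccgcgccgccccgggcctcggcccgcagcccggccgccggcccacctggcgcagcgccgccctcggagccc
BMP4 (chr14:53955051-53955300, minus strand): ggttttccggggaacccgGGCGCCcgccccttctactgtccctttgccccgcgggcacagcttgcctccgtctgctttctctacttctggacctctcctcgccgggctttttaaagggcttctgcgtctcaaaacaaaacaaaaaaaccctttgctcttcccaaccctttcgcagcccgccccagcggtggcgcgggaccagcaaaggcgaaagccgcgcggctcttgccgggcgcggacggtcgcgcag
DKK1 (chr10:52314031-52314280, plus strand): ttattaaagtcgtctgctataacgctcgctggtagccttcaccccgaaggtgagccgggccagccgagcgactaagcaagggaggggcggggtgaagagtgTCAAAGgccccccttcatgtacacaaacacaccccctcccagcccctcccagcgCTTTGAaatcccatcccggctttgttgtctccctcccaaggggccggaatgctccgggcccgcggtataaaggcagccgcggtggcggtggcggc
SP5 (chr2:170715087-170715336, plus strand): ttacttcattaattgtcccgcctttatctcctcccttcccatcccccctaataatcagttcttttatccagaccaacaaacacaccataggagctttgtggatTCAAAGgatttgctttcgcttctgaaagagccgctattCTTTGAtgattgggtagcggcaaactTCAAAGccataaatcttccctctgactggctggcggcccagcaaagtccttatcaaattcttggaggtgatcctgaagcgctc
WNT3A and BMP4 each hold 1 GC box, which starts 106 bases before the start of WNT3A and 232 before that of BMP4. DKK1 holds 2 TCF/LEF cores and SP5 holds 3, and neither window has a GC box. Over 27305 promoters, 11.4% held the TCF/LEF core and 16.1% the GC box. The core was in 0 of 11 roof plate promoters, in 0 of 16 promoters of WNT ligands and their carriers and in 3 of 10 of WNT feedback targets (30.0%: SP5, DKK1 and SP8). The GC box was in 1 of 11 roof plate promoters (9.09%, WNT3A), in 6 of 16 of the BMP list (37.5%), in 4 of 10 of WNT feedback targets (40.0%) and in 5 of 16 of WNT ligands and their carriers (31.2%). The homeodomain core pair, TAATTA, and the TATA box, TATAAA, were also searched on both strands and are not marked. All promoters held them in 4.49% and 11.1% of cases, and the 11 roof plate promoters in 1 (MSX2) and 0. A match of letters is a description of these windows and says nothing of binding.

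Most genes of the roof plate went from low levels at day 4 to some of the highest changes in the comparison at day 8. WNT1 was at 7.3 and 9.55 TPM at day 4 and at 547 and 420.1 TPM at day 8. LMX1A, a LIM-homeodomain factor of the roof plate and floor plate, was at 5.42 and 3.83 TPM and then at 278 and 169.7 TPM. MSX1, a homeodomain factor induced by BMP, was at 5.76 and 6.79 TPM and then at 316 and 151 TPM. Within each gene the 2 days were far apart, and replicate 1 was the higher library at day 8 in all 3. The log2 changes were 5.68 ± 0.37 for WNT1 (adjusted p 5.37e-09), 5.29 ± 0.38 for LMX1A (1.64e-08) and 4.92 ± 0.33 for MSX1 (8.96e-09). GDF7, a BMP-family ligand of the roof plate, was at 0.075 and 0.125 TPM at day 4 and at 76.7 and 54.1 TPM at day 8 (5.89 ± 0.28, adjusted p 1.66e-10). WNT3A, a second canonical WNT of the dorsal midline, was at 0.232 and 0.0491 TPM and then at 73.3 and 46.1 TPM (5.70 ± 0.26, 9.71e-11). GDF7 and WNT3A were thus below 1 TPM in every day 4 library, whereas WNT1, LMX1A and MSX1 were already above 3 TPM there.

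Of 14 roof plate genes 13 were tested; 10 rose and 2 fell, beside backgrounds of 16.8% and 7.7%. Their median log2 change was 4.26 as deposited and 4.06 after scaling, against 0.27 and 0.014 over all genes tested. A member that passed the filter only through its day 8 level had to differ, here and in the lists that follow, so such counts describe the members tested. BMP7, another ligand of the dorsal midline, was at 7.44 and 7.54 TPM and then at 221 and 165 TPM (4.50 ± 0.24, adjusted p 6.25e-10). MSX2, the close relative of MSX1, went from 0.58 and 0.322 TPM to 39.4 and 17.8 TPM, and LMX1B, the relative of LMX1A, from 5.05 and 6.58 TPM to 48.7 and 25.9 TPM. The R-spondins, secreted amplifiers of WNT signalling, did not move as a family. RSPO3 rose from 0.0899 and 0.0917 TPM to 15 and 7.1 TPM, while RSPO2 fell from 44.4 and 40.3 TPM to 10.8 and 18.5 TPM (-1.51 ± 0.44, adjusted p 0.0122) and RSPO4 from 4.07 and 4.01 TPM to 1.46 and 0.72 TPM. The RSPO2 call was lost without replicate 1 of day 4 (adjusted p 0.0692) or of day 8 (0.125), and that of RSPO4 without replicate 2 of day 8 (0.0685). RSPO1 was at 2.86 and 2.85 TPM and then at 4.93 and 4.2 TPM, which did not pass (adjusted p 0.0579). BMP6 was not tested, at no more than 0.692 TPM in any of the 4 libraries.

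**Figure D1:**
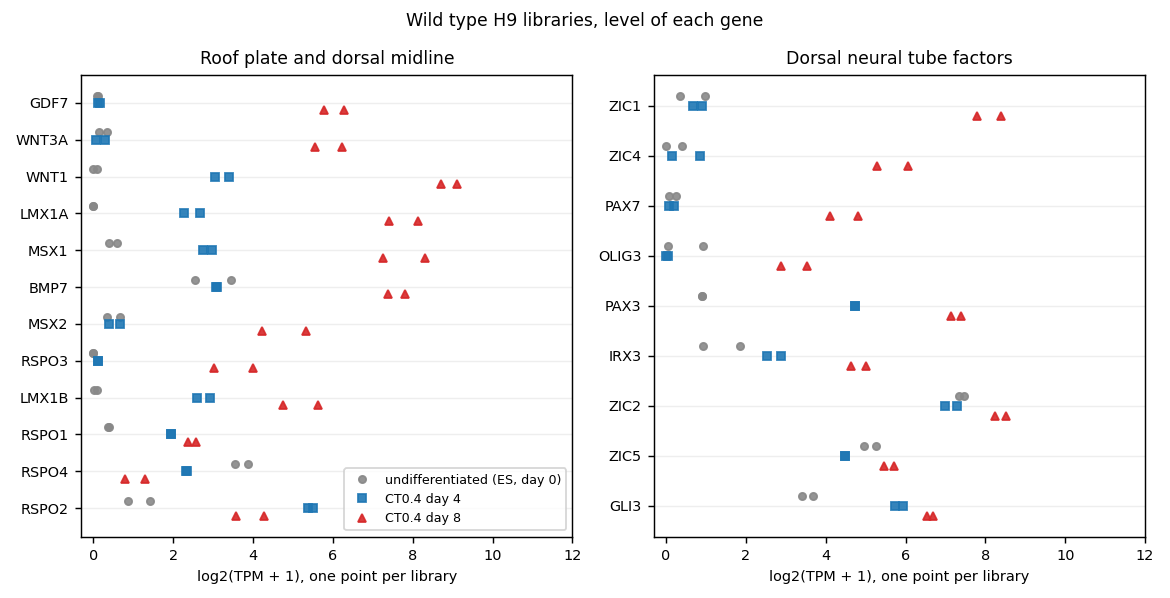
Levels of roof plate and dorsal neural tube genes on the log2(TPM + 1) axis, one point per library, for wild-type ES cells (grey circles), CT0.4 day 4 (blue squares) and CT0.4 day 8 (red triangles). ZIC1, GDF7, WNT3A and WNT1 show the widest gaps between the days, while RSPO2 and RSPO4 lie lower at day 8.

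Transcription factors of the dorsal neural tube list moved the same way: 10 of 10 were tested, 9 rose and 0 fell, with a median log2 change of 2.32 (2.03 after scaling). Bulk libraries do not place these transcripts inside or outside the midline. ZIC1, a zinc finger factor of the dorsal neural tube, was at 0.61 and 0.871 TPM at day 4 and at 334 and 221 TPM at day 8 (7.29 ± 0.43, adjusted p 1.63e-09). Its neighbour gene ZIC4 went from 0.113 and 0.815 TPM to 65.3 and 38.2 TPM (5.16 ± 0.31, 1.92e-09). PAX7, a paired-box factor of the dorsal midbrain, was at 0.155 and 0.0525 TPM and then at 26.8 and 16.2 TPM. PAX3, its relative, was already at 25.7 and 25.6 TPM at day 4 and reached 166 and 139 TPM (2.52 ± 0.28, 2.26e-06). ZIC genes rose from unequal levels: ZIC1 and ZIC4 rose from below 1 TPM, ZIC2 rose from 125 and 154 TPM to 367 and 301 TPM, and ZIC5 from 21.5 and 21.2 TPM to 51.3 and 43.3 TPM. OLIG3, which marks dorsal progenitors, was at 0 and 0.0369 TPM at day 4 and at 10.6 and 6.39 TPM at day 8.

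Most WNT ligands rose, as did WLS, which carries them. Of 19 genes for ligands, WLS and PORCN, 14 were tested; 12 rose and 0 fell, with a median log2 change of 2.19 (2.0 after scaling). WNT2B, a ligand of the dorsal midline and ciliary margin, had the largest change of a list member after ZIC1, from 0.685 and 1.72 TPM to 225 and 161 TPM (6.48 ± 0.25, adjusted p 1.51e-11). WNT10B went from 4.73 and 3.6 TPM to 95.1 and 74.6 TPM (4.05 ± 0.34, 8.18e-08), and WNT8B, a ligand of the dorsal forebrain, from 0.527 and 0.59 TPM to 16.0 and 31.5 TPM (3.92 ± 0.25, 3.61e-09). Unlike the roof plate genes above, WNT8B was higher in replicate 2 of day 8. WLS was at 240.3 and 229 TPM at day 4 and at 1535 and 1149 TPM at day 8 (2.50 ± 0.30, 5.11e-06). WNT5B, another ligand, was at 28.7 and 34 TPM and then at 27.5 and 40.6 TPM, with overlapping days, and PORCN was at 9.03 and 10.4 TPM and then at 14.2 and 14.3 TPM (adjusted p 0.0668). WNT10A was listed at 0 in the 4 libraries.

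Frizzled receptors were not read as a whole family, and only 3 are described. FZD7 and FZD5 were named because they were among the lowest genes of this comparison, so their fall was fixed by that choice. FZD10 comes from the feedback list. FZD7 fell from 208 and 238 TPM to 18.3 and 23.0 TPM (-3.38 ± 0.17, adjusted p 2.8e-10) and FZD5, a receptor of the anterior neural plate and eye field, from 34.7 and 42.1 TPM to 1.76 and 2.53 TPM (-3.65 ± 0.23, 2.86e-09). FZD10, a receptor of the dorsal neural tube, rose from 5.39 and 6.94 TPM to 49.2 and 40.8 TPM (2.69 ± 0.19, 1.72e-08). At day 4 FZD7 had the highest TPM of these 3 receptors and at day 8 FZD10 did. Levels of other Frizzled receptors are not given, so this order does not extend to the family.

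Targets of WNT signalling did not move as a block. Of 18 feedback genes 16 were tested; 7 rose and 3 fell, with a median log2 change of 0.66 (0.44 after scaling). AXIN2, a scaffold of the β-catenin destruction complex, went from 53.3 and 60.8 TPM to 349.7 and 240.4 TPM (2.33 ± 0.19, adjusted p 8.76e-08). LGR5, an R-spondin receptor, went from 0.91 and 3.09 TPM to 23.6 and 26.4 TPM (3.22 ± 0.30, 2.94e-07), and APCDD1, a membrane WNT inhibitor, from 22.1 and 31.3 TPM to 188 and 139.7 TPM. These 3 genes were among the 7 that rose. SP5, whose promoter window above holds 3 TCF/LEF cores, was at 58.4 and 47.6 TPM and then at 23.6 and 22.1 TPM, which did not pass (-1.17 ± 0.54, adjusted p 0.103), and LEF1 was at 31.6 and 27.9 TPM and then at 36.4 and 48.4 TPM (adjusted p 0.124). DKK1, whose window holds 2 such cores, fell from 19.9 and 20.7 TPM to 1.04 and 0.367 TPM (-3.67 ± 0.37, 8.44e-07). TNFRSF19 fell from 49.9 and 44.2 TPM to 12.7 and 17.6 TPM and SP8 from 87.9 and 104 TPM to 39.8 and 57.2 TPM.

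WNT antagonists, most but not all of them secreted, fell more often than they rose. Of 16 genes 10 were tested, 5 fell and 3 rose, with a median log2 change of -0.63 (-0.9 after scaling). Beside DKK1, which belongs to both lists, SHISA2, an inhibitor of receptor maturation, fell from 103 and 96.1 TPM to 8.06 and 11 TPM (-3.27 ± 0.32, adjusted p 5.05e-07). FRZB fell from 46.3 and 44.3 TPM to 9.54 and 7.19 TPM (-2.32 ± 0.12, 6.25e-10), and SFRP1 from 339.9 and 343 TPM to 147 and 145 TPM. SFRP1 thus remained above 100 TPM, and its relative SFRP2 was at 168 and 194 TPM and then at 224 and 353 TPM, called as deposited only (0.64, and 0.33 after scaling). KREMEN1, a DKK receptor, rose from 0.567 and 0.966 TPM to 8.65 and 8.05 TPM, SOSTDC1, an antagonist of BMP and WNT, from 0.271 and 0.718 TPM to 9.27 and 5.09 TPM, and DKK3 from 15.2 and 14.3 TPM to 50.1 and 43.2 TPM.

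Most BMP pathway genes rose, among them ligands, the antagonist NOG and ID targets. Of 20 genes 17 were tested; 13 rose and 1 fell, with a median log2 change of 2.64 (2.34 after scaling). ID1, a direct BMP target, was at 1.93 and 1.4 TPM at day 4 and at 177 and 140.4 TPM at day 8 (5.90 ± 0.28, adjusted p 1.56e-10). In ES cells ID1 was at 79.1 and 62.8 TPM, so its day 4 level lay below both its start and its day 8 level. GDF6 went from 0.363 and 0.32 TPM to 58.1 and 33.2 TPM (5.07 ± 0.27, 6.17e-10) and BMP4 from 0.29 and 0.591 TPM to 54.8 and 34.1 TPM (4.95 ± 0.42, 1.06e-07). NOG, the secreted BMP antagonist noggin, went from 0.35 and 0.797 TPM to 39.0 and 25.7 TPM (4.39 ± 0.24, 6.25e-10). Ligand and antagonist transcripts were therefore raised side by side. ID4 rose from 2.23 and 2.98 TPM to 68.9 and 66.8 TPM and ID3 from 27.7 and 37.4 TPM to 199 and 215 TPM, but ID2 was at 418 and 379 TPM and then at 438 and 337 TPM, with overlapping days (-0.05 ± 0.23). FST, which encodes the activin antagonist follistatin, was the only member that fell, from 49 and 50.3 TPM to 26.8 and 29.4 TPM (-0.80 ± 0.18, 0.00243).

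**Figure D2:**
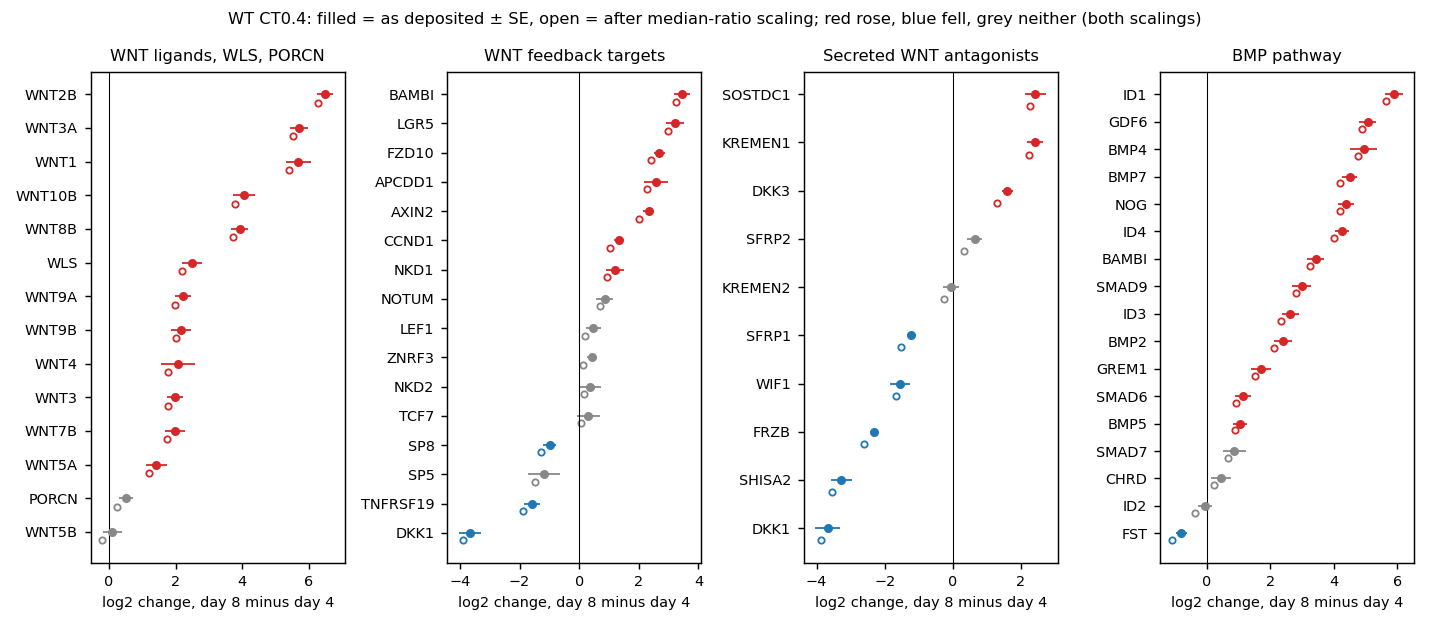
Log2 change of day 8 minus day 4 with its standard error for WNT ligands and their carriers, WNT feedback genes, WNT antagonists and BMP genes, filled as deposited and open after median-ratio scaling. Red genes rose, blue genes fell and grey genes did neither; ligand and BMP panels lie mostly to the right, with WNT2B at 6.48, and the antagonist panel holds DKK1 at -3.67.

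Midbrain genes went both ways. Of 18 factors 15 were tested; 7 rose and 4 fell, with a median log2 change of 1.01 (0.71 after scaling). OTX2, the factor that specifies forebrain and midbrain, was at 427 and 415 TPM and then at 413 and 403 TPM (-0.04 ± 0.36, adjusted p 0.944). PAX2 fell from 30.7 and 38 TPM to 0.919 and 0.567 TPM (-4.34 ± 0.37, 1.03e-07), its relative PAX8 from 5.54 and 8.25 TPM to 1.1 and 0.383 TPM (-2.19 ± 0.50, 0.00218), and EN1, a factor of midbrain and rostral hindbrain, from 5.32 and 8.19 TPM to 0.705 and 0.745 TPM (-2.14 ± 0.38, 0.000264). These 3 genes of the boundary region were above 5 TPM in the day 4 libraries and near or below 1 TPM at day 8. BARHL1, a homeodomain factor of the developing diencephalon and midbrain, rose from 3.84 and 3.09 TPM to 30.5 and 74.3 TPM (3.45 ± 0.29, 9.71e-08), and here replicate 2 was the higher library at day 8. LHX9 rose from 0.131 and 0.139 TPM to 4.67 and 5.21 TPM (2.39 ± 0.19, 6.12e-08) and MEIS2 from 7.58 and 8.37 TPM to 23.6 and 28.1 TPM. OTX1 rose from 77.8 and 97.6 TPM to 229 and 239 TPM, a call lost without replicate 1 of day 4 (adjusted p 0.0693). LHX5 fell from 40.9 and 47.7 TPM to 9.91 and 30.1 TPM, a call lost without replicate 2 of day 4 (0.0623) or replicate 1 of day 8 (0.234).

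FGF8 and its feedback inhibitor fell with the boundary factors. FGF8 was at 12.1 and 11 TPM at day 4 and at 1.02 and 2.02 TPM at day 8 (-2.34 ± 0.34, adjusted p 3.45e-05), and FGF17 went from 1.69 and 2.28 TPM to 0.149 and 0.246 TPM. SPRY1, induced by FGF signalling, went from 22.1 and 22.0 TPM to 0.967 and 2.37 TPM (-3.16 ± 0.19, 2.09e-09). Of 16 genes of this list 12 were tested; 4 fell and 1 rose, with a median log2 change of -0.38 (-0.67 after scaling). As deposited 2 were higher and 4 lower, and after scaling 1 was higher and 7 were lower. The call of SPRY2, at 14.3 and 16.6 TPM and then 11.3 and 10.5 TPM, was lost without replicate 2 of either day (0.125 and 0.0911). ETV1 was the member that rose, from 26.3 and 27.4 TPM to 52.2 and 42.8 TPM, and DUSP6 was at 3.1 and 5.56 TPM and then at 9.71 and 11.6 TPM, called as deposited only. FGFR2, a receptor chosen by the size of its difference from another condition, rose from 59.1 and 70.7 TPM to 462 and 394 TPM (2.70 ± 0.14, 3.36e-10). None of the 10 rostral hindbrain genes passed the filter, and their summed level was between 0.753 and 0.998 TPM in the 4 libraries.

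Among forebrain genes some rose and some fell. Of 18 factors 12 were tested; 5 rose and 4 fell, with a median log2 change of -0.18 (-0.4 after scaling). FEZF1, a factor of the anterior neural plate, fell from 95.7 and 111 TPM to 2.92 and 3.27 TPM (-4.67 ± 0.26, adjusted p 1e-09), and VAX2, a factor of the ventral eye, from 2.27 and 2.66 TPM to 0.161 and 0.0811 TPM. HESX1 fell from 10.8 and 11.4 TPM to 2.89 and 5.32 TPM, a call lost without replicate 1 of day 8 (0.118). The nuclear receptors NR2F1 and NR2F2 rose, from 33.2 and 45.5 TPM to 315 and 366 TPM (3.10 ± 0.34, 2.19e-06) and from 21.0 and 25.5 TPM to 225 and 199 TPM (3.14 ± 0.35, 2.79e-06). TCF7L2, a TCF factor of the thalamus, rose from 23.8 and 26.7 TPM to 77.7 and 133 TPM. VAX1 was listed at 0 in both day 4 libraries and was at 4.78 and 2.95 TPM at day 8.

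Most pluripotency genes tested fell. Of 17 genes 10 were tested; 9 fell and 0 rose, with a median log2 change of -0.99 (-1.17 after scaling). POU5F1 fell by 4.27 ± 0.28 on the log2 scale (adjusted p 5.79e-09), with the levels given above. DNMT3B, a DNA methyltransferase of pluripotent cells, fell from 74.9 and 82.8 TPM to 18.0 and 22.8 TPM (-1.91 ± 0.14, 1.66e-08). LIN28A, an RNA-binding protein, fell less and from a higher level, from 954 and 941 TPM to 649.9 and 618 TPM (-0.58 ± 0.092, 9.18e-05), while LIN28B was at 87.2 and 82.2 TPM and then at 87.6 and 83.8 TPM. The direction of LIN28B turned with the scaling (0.02 as deposited and -0.29 after it). The calls of L1TD1 and TERF1, the smallest in level and in change, were lost without 1 library: L1TD1 without any of the 4 (highest adjusted p 0.0753) and TERF1 without replicate 2 of day 4 (0.0921) or replicate 1 of day 8 (0.065). NANOG was not tested, at no more than 0.181 TPM. Of the SOX B genes, SOX2 fell (-1.36 ± 0.12, 1.57e-07) and SOX21 fell from 98.6 and 114 TPM to 7.97 and 13.7 TPM (-3.22 ± 0.26, 5.94e-08), while SOX3 rose from 6.62 and 7.18 TPM to 24.1 and 36.1 TPM (1.95 ± 0.26, 1.38e-05). SOX14 was not tested.

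The 14 highest and 14 lowest genes, by the naming rule, included several outside the lists. VIT, which encodes the matrix protein vitrin, was at 0 and 0.0341 TPM at day 4 and at 75.0 and 52.0 TPM at day 8 (5.96 ± 0.19, adjusted p 2.53e-12), the smallest p among the named genes. MMRN1, which encodes multimerin, went from 0.118 and 0.273 TPM to 185 and 111 TPM (6.92 ± 0.26, 1.51e-11), and SAMD5 from 0.0759 and 0.109 TPM to 51.9 and 42.3 TPM (5.45 ± 0.21, 1.51e-11). CLEC19A went from 0.315 and 0.463 TPM to 71.0 and 69.1 TPM and VSTM2L from 1.29 and 1.24 TPM to 109 and 90.3 TPM. On the other side, HES3, a bHLH repressor of early progenitors and the isthmus, fell from 146 and 174 TPM to 2.78 and 10.3 TPM (-4.62 ± 0.57, 6.84e-06). DBX1, a homeodomain factor of intermediate progenitor domains, fell from 61.4 and 61.7 TPM to 1.06 and 4.4 TPM (-4.23 ± 0.44, 1.24e-06). FBLN1, which encodes the matrix protein fibulin, fell from 234 and 320.4 TPM to 13.6 and 23.5 TPM (-3.86 ± 0.30, 4.3e-08). PAMR1, PAPLN, VRTN and PPP1R17 fell by 3.66, 3.55, 3.60 and 3.40 on the log2 scale. The days did not overlap for any of the 28 genes, which the rule itself required.

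Neural progenitor genes rose in part. Of 19 genes 19 were tested; 9 rose and 3 fell, with a median log2 change of 0.9 (0.6 after scaling). VIM, which encodes the intermediate filament vimentin, rose from 408 and 391 TPM to 1700.1 and 1601 TPM (2.04 ± 0.12, adjusted p 1.92e-09), and PROM1 from 10.9 and 13.5 TPM to 64.4 and 52.4 TPM. NES, the other progenitor filament, was at 223 and 259 TPM and then at 237 and 307 TPM, with overlapping days (0.17 ± 0.29). PTPRZ1 fell from 149 and 141 TPM to 56.1 and 74.7 TPM (-1.15 ± 0.16, 2.27e-05) and SLC1A3, a glial glutamate transporter, from 36.3 and 41 TPM to 10.9 and 18.3 TPM (-1.38 ± 0.32, 0.00243). SOX4 was at 47.3 and 49.4 TPM and then at 32.3 and 40.4 TPM, a call lost without any 1 of 3 libraries (highest adjusted p 0.216, without replicate 1 of day 8). HES5, a NOTCH target, rose from 0.939 and 1.56 TPM to 8.16 and 21.8 TPM (2.70 ± 0.58, 0.00147).

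In the NOTCH list, with 15 of 16 tested, 7 rose and 1 fell, with a median log2 change of 0.69 (0.39 after scaling). HES4, a HES-family repressor, rose from 13.6 and 16.2 TPM to 114 and 176 TPM (3.17 ± 0.49, adjusted p 6.99e-05) and the receptor NOTCH2 from 25.8 and 30.3 TPM to 118 and 88.2 TPM (1.83 ± 0.14, 4.96e-08). Among ligands, JAG2 rose from 2.38 and 1.36 TPM to 8.97 and 7.7 TPM and DLL3 from 1.92 and 3.2 TPM to 11.2 and 8.94 TPM, the latter a call lost without replicate 1 of day 4 (0.0568). JAG1 and DLL1, both above 28 TPM throughout, had overlapping days. MFNG, a modifier of NOTCH, fell from 7.43 and 7.07 TPM to 0.736 and 2.73 TPM (-1.70 ± 0.31, 0.000395).

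Proneural and neuronal genes rose more often than they fell. Of 20 proneural and commitment factors 13 were tested; 7 rose and 0 fell, with a median of 1.47 (1.26 after scaling). EBF3 rose from 0.156 and 0.596 TPM to 14.7 and 13.3 TPM (3.47 ± 0.29, adjusted p 9.2e-08), and NHLH1, a bHLH factor of newborn neurons, from 0.379 and 0.489 TPM to 10.1 and 8.22 TPM (2.82 ± 0.32, 3.12e-06). NEUROG1 was listed at 0 in both day 4 libraries and was at 3.18 and 3.95 TPM at day 8. NEUROG2 and ATOH1 were not tested. Of 24 neuronal genes 20 were tested; 13 rose and 0 fell, with a median of 1.22 (0.99 after scaling). MAP2, a dendritic microtubule protein, rose from 81.8 and 79.3 TPM to 276 and 235 TPM (1.65 ± 0.18, 2.56e-06) and DCX from 2.82 and 3.54 TPM to 10.4 and 11.1 TPM (1.5 ± 0.24, 0.00012). ELAVL3 rose from 0.298 and 1.47 TPM to 10.6 and 8.11 TPM. STMN2 and INA did not pass, with 26 and 22.5 TPM and then 38.7 and 42.9 TPM for STMN2. The calls of TUBB3 and NEFL were lost without replicate 1 of day 4 (0.0829 and 0.0664), and that of TUBB3 also without replicate 1 of day 8 (0.0622).

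Markers of other cell types were read as whole lists. For neural crest, 15 of 17 genes were tested, 8 rose and 2 fell, and the summed level went from 110.1 and 125 TPM to 256 and 212 TPM. CDH6, a cadherin of dorsal neural tube and crest, rose from 2.26 and 1.62 TPM to 129.7 and 99.7 TPM (5.29 ± 0.37, adjusted p 1.23e-08), and SNAI2 from 0.966 and 0.993 TPM to 17.4 and 11.6 TPM (2.95 ± 0.34, 3.56e-06). SOX10 and TFAP2A, also on this list, were at no more than 0.358 and 0.396 TPM in the 4 libraries. NGFR fell from 20.9 and 24.5 TPM to 8.79 and 12.3 TPM, a call lost without replicate 2 of day 4 (0.0531) or replicate 1 of day 8 (0.0813). MITF rose from 0.514 and 1.27 TPM to 3.76 and 5.55 TPM, a call lost without replicate 1 of day 4 (0.0681) or replicate 2 of day 8 (0.0546).

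For choroid plexus and cortical hem, dorsal midline derivatives of the brain, 10 of 12 genes were tested, 8 rose and 1 fell, with a summed level of 165 and 157 TPM and then 555 and 466 TPM. TTR, the transthyretin gene of choroid plexus, was at 0 and 0.274 TPM and then at 41.0 and 13.4 TPM (4.45 ± 0.34, adjusted p 3.94e-08), KCNJ13 went from 1.26 and 1.24 TPM to 11.9 and 11.8 TPM, and CLIC6 from 0.0893 and 0.0745 TPM to 2.63 and 2.89 TPM. WNT2B, BMP4 and RSPO2 also belong to this list, and AQP1, at 1.8 and 2.29 TPM at day 8, lost its call without any 1 of the 4 libraries (highest adjusted p 0.116). For mesenchyme and vessel, 9 of 16 were tested, 5 rose and 1 fell, with a summed level of 50.2 and 50.8 TPM and then 387 and 358 TPM. COL3A1 was at 0.042 and 0 TPM and then at 89.1 and 66.6 TPM (6.26 ± 0.36, 1.52e-09), LUM was listed at 0 at day 4 and at 14.2 and 11.2 TPM at day 8, and ACTA2 rose from 24.6 and 24.9 TPM to 243 and 240.1 TPM. PRRX1 and PECAM1 were at no more than 1.53 and 0.561 TPM at day 8. Surface ectoderm and epithelium had 8 of 17 tested, 3 that rose (TFAP2C, KRT8 and KRT19) and 2 that fell (CLDN6 and EPCAM), with a summed level of 202 and 219 TPM and then 388 and 305 TPM; CDH1 and TP63 were at no more than 0.364 and 0.23 TPM. Mesendoderm had 2 of 14 tested, of which GSC fell, and SOX17 was listed at 0 in the 4 libraries. The part of such cells in the other changes was not tested.

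Most annexins and genes known as YAP targets rose: of 19 genes 18 were tested, 13 rose and 0 fell, with a median log2 change of 1.53 (1.24 after scaling). ANXA1, a calcium-dependent membrane-binding protein, was at 0 and 0.54 TPM at day 4 and at 75.6 and 81.2 TPM at day 8 (6.0 ± 0.27, adjusted p 1.07e-10), and ANXA2 went from 2.16 and 3.22 TPM to 304 and 212 TPM (6.13 ± 0.26, 4.84e-11). Other annexins moved less: ANXA3 rose from 2.38 and 2.86 TPM to 23.6 and 21.8 TPM, and ANXA5 was at 118 and 121 TPM and then at 157 and 139.9 TPM (adjusted p 0.0652). CTGF and CYR61, the YAP targets now named CCN2 and CCN1, rose from 13.4 and 14.2 TPM to 283 and 260.1 TPM (4.20 ± 0.37, 1.42e-07) and from 9.48 and 12.2 TPM to 75.9 and 81.2 TPM (2.75 ± 0.33, 5.24e-06). Of 24 collagen, laminin and other basement membrane genes 23 were tested; 17 rose and 0 fell, with a median of 1.07 (0.77 after scaling). COL5A2 rose from 5.64 and 4.53 TPM to 74.5 and 67.9 TPM (3.57 ± 0.23, 4.78e-09) and LAMB2 from 40.0 and 40.5 TPM to 184 and 207 TPM (2.25 ± 0.10, 8.96e-11). COL4A1 was at 39.8 and 46.6 TPM and then at 37.2 and 38.5 TPM, apart from its partner COL4A2, which rose from 40.2 and 49.4 TPM to 97.4 and 93.9 TPM.

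Axon guidance genes went both ways, with 30 of 30 tested, 14 that rose and 8 that fell. Among SLIT ligands and their ROBO receptors some rose: SLIT2 from 0.871 and 1.03 TPM to 41.8 and 31.0 TPM (4.25 ± 0.30, adjusted p 1.51e-08), SLIT3 from 0.951 and 0.51 TPM to 20.4 and 14.5 TPM, and the receptor ROBO2 from 1.55 and 1.16 TPM to 28.3 and 21.8 TPM (3.46 ± 0.28, 5.14e-08). SLIT1 was at 0.913 and 1.1 TPM and then at 1.64 and 2.26 TPM (adjusted p 0.12). ROBO1, the more abundant receptor at day 4, fell from 94.2 and 109 TPM to 52.4 and 48.7 TPM (-0.99 ± 0.19, 0.00054). DCC, a netrin receptor, rose from 0.514 and 0.258 TPM to 29.1 and 14.6 TPM (3.98 ± 0.34, 1.28e-07), while its ligand NTN1, a floor plate gene, went from 3.83 and 5.64 TPM to 0.594 and 1.83 TPM, a call lost without replicate 2 of day 4 (0.116) or replicate 1 of day 8 (0.171). EPHA7 rose from 56.9 and 48 TPM to 426 and 332 TPM (2.82 ± 0.19, 7.18e-09), and EPHA4 fell from 174 and 154 TPM to 41.2 and 53.6 TPM (-1.78 ± 0.25, 2.79e-05). Over all genes tested, calls of fallers were lost without 1 library more often than calls of risers. Some axon guidance calls were lost too. These were NRP1 among the risers (0.0776 without replicate 1 of day 4), and NTN1, SEMA6A (0.0737 without replicate 1 of day 8), EFNB1 (0.0778 without replicate 2 of day 4) and DRAXIN (highest 0.157, lost without any of the 4) among the fallers.

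Of 13 cadherins 10 were tested, 5 rose and 1 fell. CDH8 rose from 10.3 and 9.76 TPM to 47.9 and 44.9 TPM (2.11 ± 0.28, adjusted p 1.73e-05), CDH7 fell from 4.92 and 4.56 TPM to 1.38 and 1.09 TPM, and PCDH8 rose from 1.33 and 3.24 TPM to 7.24 and 19.8 TPM, a call lost without replicate 1 of day 4 (0.0594) or replicate 2 of day 8 (0.0779). Among retinoic acid genes, with 11 of 15 tested, 5 rose and 1 fell. ALDH1A1, a retinaldehyde dehydrogenase, was listed at 0 in both day 4 libraries and was at 5.56 and 12 TPM at day 8, and CRABP2, a retinoic acid carrier, rose from 192 and 210.4 TPM to 727 and 549 TPM (1.65 ± 0.18, 1.75e-06). The receptor RARG fell from 18.6 and 17.1 TPM to 4.46 and 4.47 TPM (-1.78 ± 0.18, 7.5e-07). In the IGF list, with 11 of 15 tested, 3 rose and 3 fell: IGFBP2 rose from 203 and 210.4 TPM to 1371 and 984 TPM (2.49 ± 0.22, 1.42e-07), and IGFBP3 fell from 17.3 and 15.6 TPM to 2.01 and 2.28 TPM (-2.47 ± 0.30, 6.76e-06). The imprinted genes DLK1 and MEG3, which lie at the same locus, fell from 218 and 193 TPM to 16.6 and 19 TPM (-3.46 ± 0.44, 1.11e-05) and from 3.29 and 4.47 TPM to 0.103 and 0.241 TPM (-2.05 ± 0.27, 1.41e-05). Ventral genes were scarce: 5 of 14 were tested, SHH and FOXA2 were at no more than 0.708 and 0.296 TPM, and NKX6-1 fell from 6.32 and 10.2 TPM to 0.629 and 1.95 TPM (-2.05 ± 0.36, 0.000272).

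Calls among S phase and mitosis genes depended on the scaling. Of 16 S phase genes 16 were tested; 4 fell and 0 rose, while 1 was higher and 4 were lower as deposited and 0 and 9 after scaling. MCM3 went from 203 and 216 TPM to 130.2 and 135 TPM (-0.66 ± 0.11, adjusted p 0.000217) and MCM4 from 355 and 423 TPM to 255 and 295 TPM (-0.50 ± 0.11, 0.00166), and these were the ones also called without each library. GINS2 and MCM6 were lost, at up to 0.0529 without replicate 1 of day 8 and 0.0615 without replicate 2 of day 4. Of the 17 mitosis genes, 6 were called higher and 2 lower as deposited, and 0 and 5 after scaling. Their median log2 change was 0.15 as deposited and -0.15 after scaling. The split of all genes tested moved the same way, from 29.2% higher and 7.7% lower as deposited to 16.8% and 16.9% after scaling. CCNB2 and BUB1 were called lower under both and were lost without 1 library (highest 0.131 without replicate 1 of day 4 and 0.207 without replicate 1 of day 8). Among cell cycle inhibitors, with 9 of 11 tested, 6 rose and 1 fell. CDKN2D rose from 1.48 and 1.3 TPM to 27.8 and 18.5 TPM (3.31 ± 0.28, 1.1e-07), CDKN1A from 3.74 and 3.44 TPM to 17.5 and 20.0 TPM, and CDKN1C from 9.88 and 10.3 TPM to 32.0 and 33.2 TPM. BTG1 was the member that fell, a call lost without replicate 1 of day 4 (0.119) or replicate 2 of day 8 (0.175).

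Of 15 stress genes 15 were tested; 6 rose and 0 fell. ATF3 rose from 11.2 and 11.6 TPM to 60.6 and 56.8 TPM (2.27 ± 0.22, adjusted p 4.48e-07). HSPA1A and HSPA1B rose by 1.07 and 1.18 on the log2 scale, but their near-identical sequences make the split between them uncertain, and ATF4 and HSPA5 did not pass. In the hypoxia and glycolysis list, with 15 of 17 tested, 7 rose and 1 fell. The glucose transporter gene SLC2A3 rose from 32.6 and 29.7 TPM to 224 and 129 TPM (2.41 ± 0.27, 2.63e-06), and SLC2A1, the more abundant transporter at day 4, went from 255 and 295 TPM to 119 and 215 TPM, a call lost without any 1 of 3 libraries (highest 0.438 without replicate 1 of day 8). PKM rose from 480.2 and 553 TPM to 1264 and 1234 TPM, whereas ENO1 and PGK1 had overlapping days. NDRG1 rose from 1.93 and 1.7 TPM to 14 and 6.65 TPM, a call lost without replicate 1 of day 8 (0.0685). Of 9 metallothionein genes 4 were tested and those 4 fell, MT1X from 84.4 and 82.2 TPM to 29.4 and 20.1 TPM (-1.73 ± 0.39, 0.00212) and MT1F from 27.5 and 31.1 TPM to 5.89 and 6.17 TPM (-2.11 ± 0.37, 0.00028). The call of MT2A was lost without any 1 of 3 libraries (highest 0.297 without replicate 2 of day 8).

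**Figure D3:**
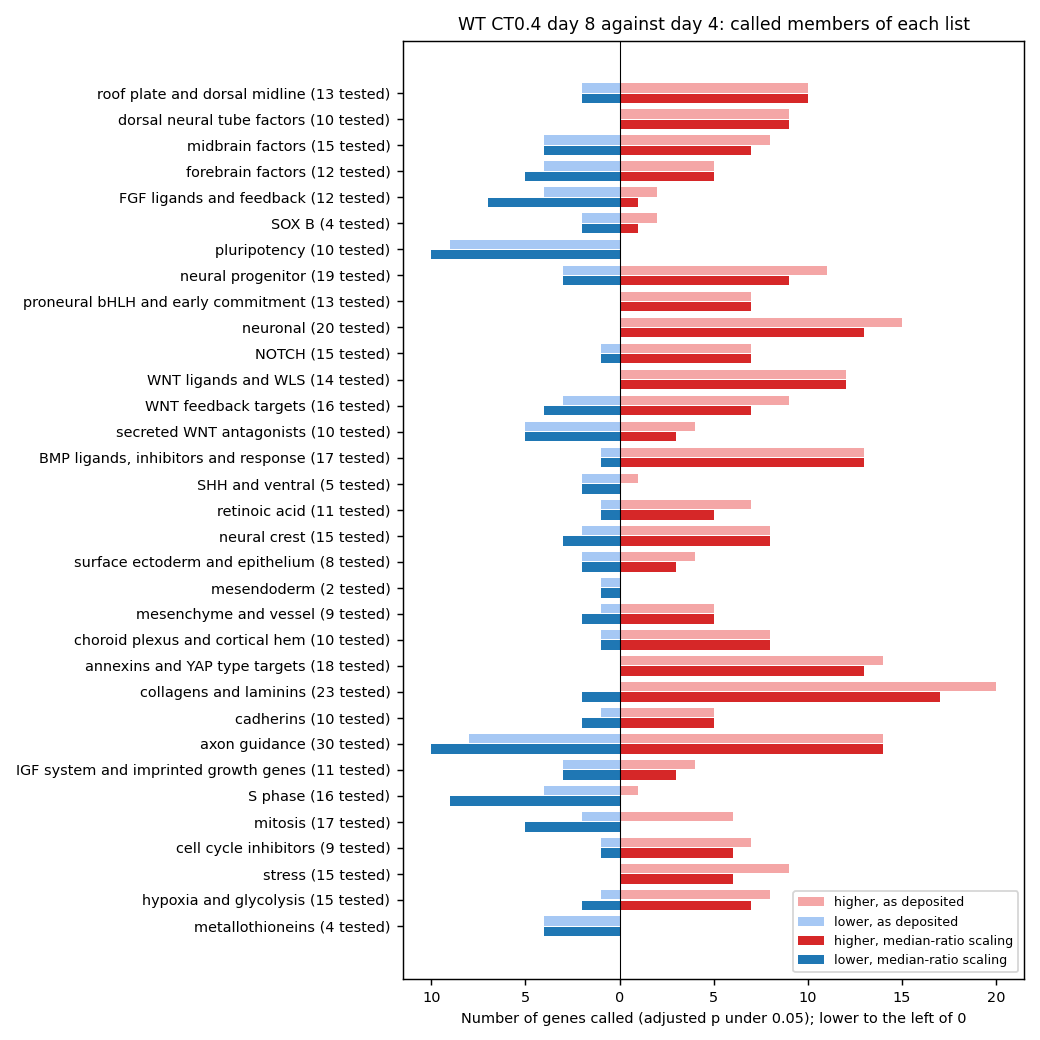
Number of genes of each list that were called higher (to the right of 0) or lower (to the left), light as deposited and dark after median-ratio scaling. Dorsal, WNT ligand, BMP, annexin and collagen lists lie mostly to the right, and the 9 pluripotency genes that fell lie to the left. Calls of the mitosis list lie mostly to the right as deposited and only to the left after scaling.

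The change under CT0.4 was then set against the change from day 4 to day 8 under the other conditions, each with its own libraries. As a difference of log2 changes, 2529 genes (12.8%) differed between CT0.4 and CT1.0, 3639 (18.4%) between CT0.4 and IWP2, and 355 (1.8%) between wild type and KO under CT0.4. Called under both scalings, 7.18% were higher and 5.21% lower against CT1.0, 9.26% and 4.45% against IWP2, and 0.704% and 0.233% against KO. The split depends on the scaling: against IWP2 2759 (14%) were higher and 880 (4.46%) lower as deposited, and 1829 (9.26%) and 1663 (8.42%) after scaling, while against KO 308 (1.56%) and 47 (0.238%) became 139 (0.704%) and 189 (0.957%). The KO count rests on 2 libraries and on the shared estimate of spread: it was 75 without replicate 1 of day 4 and 47 without replicate 2 of day 8, and 0 genes passed limma when only the 8 libraries compared were fitted, with 3087 at an unadjusted p under 0.05. Without 1 library the IWP2 count was lowest at 2317, without replicate 1 of day 4, and the CT1.0 count at 1623, without replicate 1 of day 8.

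Under CT1.0 some roof plate genes stayed low and others rose by less. Of the 13 tested, 6 were called higher and 1 lower within CT1.0, as deposited and after scaling, beside 18.0% and 3.5% of all genes as deposited. WNT1 was at 5.59 and 4.1 TPM at day 4 and at 7.48 and 4.98 TPM at day 8 under CT1.0, and the difference in log2 change from CT0.4 was 5.39 ± 0.52 (adjusted p 4.06e-06). LMX1A was at 0.191 and 0.506 TPM and then at 0.827 and 0.447 TPM under CT1.0 (difference 5.01 ± 0.53, 9.93e-06), and ZIC1 at 0.078 and 0.248 TPM and then at 5.23 and 0.728 TPM (5.79 ± 0.60, 8.03e-06). For these genes the CT1.0 levels at day 8 lay below 10 TPM in both libraries. Those that were higher included MSX1 (1.52), GDF7 (1.13), WNT3A (1.66), LMX1B (1.27) and BMP7 (2.92), each with its log2 change within CT1.0. BMP7 was at 5.85 and 7.39 TPM and then at 62.1 and 51.3 TPM there, a smaller change than under CT0.4 (difference 1.58 ± 0.34, 0.00539). Called under both scalings, the CT0.4 change was higher for 8 of 13 roof plate genes, 7 of 10 dorsal factors, 11 of 14 WNT ligand genes and 12 of 17 BMP genes, and lower for 0 of each. PAX2 started lower under CT1.0, at 4.48 and 4.93 TPM, and was then at 3.15 and 1.32 TPM (difference -3.47 ± 0.52, 0.000258). That start left less room for a fall than under CT0.4. NTN1 and IGFBP3 went opposite ways: under CT1.0 NTN1 was at 1.31 and 1.68 TPM and then at 34.9 and 32.7 TPM (-5.22 ± 0.62, 3.01e-05) and IGFBP3 at 4.72 and 3.27 TPM and then at 37.9 and 25.6 TPM (-5.17 ± 0.43, 8.8e-07). ANXA1 was at 0.399 and 0.161 TPM and then at 56.4 and 40.6 TPM under CT1.0, and the difference did not pass (0.74 ± 0.39, 0.242).

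Under IWP2 the roof plate genes RSPO1, RSPO3 and RSPO4 were lower at day 8, as deposited and after scaling. WNT ligand and BMP genes went both ways. As deposited, 4 of 14 WNT ligand genes were higher and 3 lower within IWP2, and 3 of 17 BMP genes were higher and 3 lower, beside 12.7% and 6.97% of all genes. WNT7B, a ligand of the forebrain, was at 0.0392 and 0.174 TPM and then at 32.1 and 29.4 TPM under IWP2, a larger change than under CT0.4 (difference -2.87 ± 0.43, adjusted p 0.000169). WNT1 was at no more than 0.205 TPM in the 4 IWP2 libraries (difference 5.77 ± 0.52, adjusted p 1.19e-06). ID1 was at 7.4 and 7.62 TPM and then at 7.79 and 5.93 TPM (6.03 ± 0.39, 5.42e-08). Called under both scalings, the CT0.4 change was higher for 11 of 13 roof plate genes, 8 of 10 dorsal factors, 9 of 14 WNT ligand genes (2 lower) and 14 of 17 BMP genes, and lower for 7 of 12 FGF genes (0 higher). FGF8 was at 50 and 56.9 TPM and then at 143 and 177 TPM under IWP2 (-3.90 ± 0.47, 2.51e-05), and SPRY1 at 76.6 and 71.8 TPM and then at 132 and 146 TPM (-4.06 ± 0.27, 5.42e-08). Both genes thus fell under CT0.4 and were higher at day 8 than at day 4 in both IWP2 libraries. PAX8, FZD5 and DLK1 showed the same crossing: PAX8 was at 0.837 and 1.16 TPM and then at 8.54 and 17.4 TPM under IWP2 (-4.93 ± 0.70, 0.000116), FZD5 at 154 and 150.2 TPM and then at 328 and 341 TPM (-4.78 ± 0.32, 5.42e-08), and DLK1 at 523 and 519 TPM and then at 3251 and 3059 TPM (-6.05 ± 0.63, 5.04e-06). FGFR2 crossed in the opposite sense, at 54.9 and 48 TPM and then at 1.44 and 1.63 TPM under IWP2, a difference of 7.07 ± 0.19 (2.44e-13). PAX2 fell under both, from 51.4 and 48.7 TPM to 1.61 and 2.26 TPM under IWP2, and the difference did not pass (-0.21 ± 0.52, 0.831).

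In KO cells under CT0.4 most of the same genes moved. Of the 2234 genes that rose by at least 1, 2100 (94.0%) had the same sign in KO cells and 1615 (72.3%) were called higher there as deposited, beside 20.2% of all genes tested. Of the 483 that fell, 446 (92.3%) had the same sign and 357 (73.9%) were called lower, beside 10%. The same sign was also found for 83.4% of the risers under CT1.0 and 74.4% under IWP2, and for 63.4% and 69.8% of the fallers. The share of same signs over all genes was not computed. For the risers the called shares were 39.9% under CT1.0 (18.0% of all genes) and 30.9% under IWP2 (12.7%), and for the fallers 28.2% (3.5%) and 33.3% (6.97%). After scaling, the risers' shares were 67.3% in KO cells (15.2% of all genes), 26.4% under CT1.0 (7.01%) and 26.2% under IWP2 (9.72%), and the fallers' 76.0% (14%), 36.4% (8.73%) and 37.9% (10.4%). LMX1A was at 7.58 and 3.78 TPM and then at 304 and 338 TPM in KO cells, and GDF7 at 0.106 and 0.0829 TPM and then at 96.6 and 85 TPM. Against KO, 0 of 13 roof plate genes differed under both scalings, beside 0.704% of all genes tested higher and 0.233% lower. At such shares a count of 0 of 13 says little about these genes. The differences were -0.36 ± 0.53 for LMX1A (adjusted p 0.787), -0.49 ± 0.40 for GDF7 (0.569), 0.25 ± 0.47 for MSX1 (0.841) and 1.14 ± 0.52 for WNT1 (0.265). A difference that did not pass does not show that the changes were equal.

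Some genes were called as changing differently in wild type and KO in the fit of all 28 libraries. When only the 8 libraries compared were fitted with limma, 0 genes passed, and BARHL1 had an adjusted p of 0.124. BARHL1 was at 7.63 and 10.2 TPM at day 4 and at 10.4 and 8.69 TPM at day 8 in KO cells, against its rise in wild type (difference 3.35 ± 0.41, adjusted p 0.000786). ID1 rose in wild type from 1.93 and 1.4 TPM but stood at 18.6 and 11.1 TPM at day 4 in KO cells and then at 173 and 179 TPM (2.38 ± 0.39, 0.00736), so the genotypes were apart at day 4 and overlapped at day 8. Among hypoxia and glycolysis genes, 9 of 15 had a higher change in wild type under both scalings and 0 a lower one, beside 0.704% and 0.233% of all genes. BNIP3, a hypoxia-induced mitochondrial gene, was at 154 and 154 TPM and then at 46.2 and 34.0 TPM in KO cells, against 30.9 and 26.5 TPM and then 36.4 and 41.5 TPM in wild type (2.36 ± 0.33, 0.00296). VEGFA was at 64.3 and 77.6 TPM and then at 36.4 and 37.7 TPM in KO cells, against 17.4 and 14 TPM and then 42.3 and 33.2 TPM in wild type (2.13 ± 0.29, 0.00232). For both genes the genotypes were apart at day 4 and overlapped at day 8. As deposited the list had 10 such genes, which became 4 without replicate 1 of day 4 and 3 without replicate 2 of day 8 (VEGFA, PDK1 and BNIP3).

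**Figure D4:**
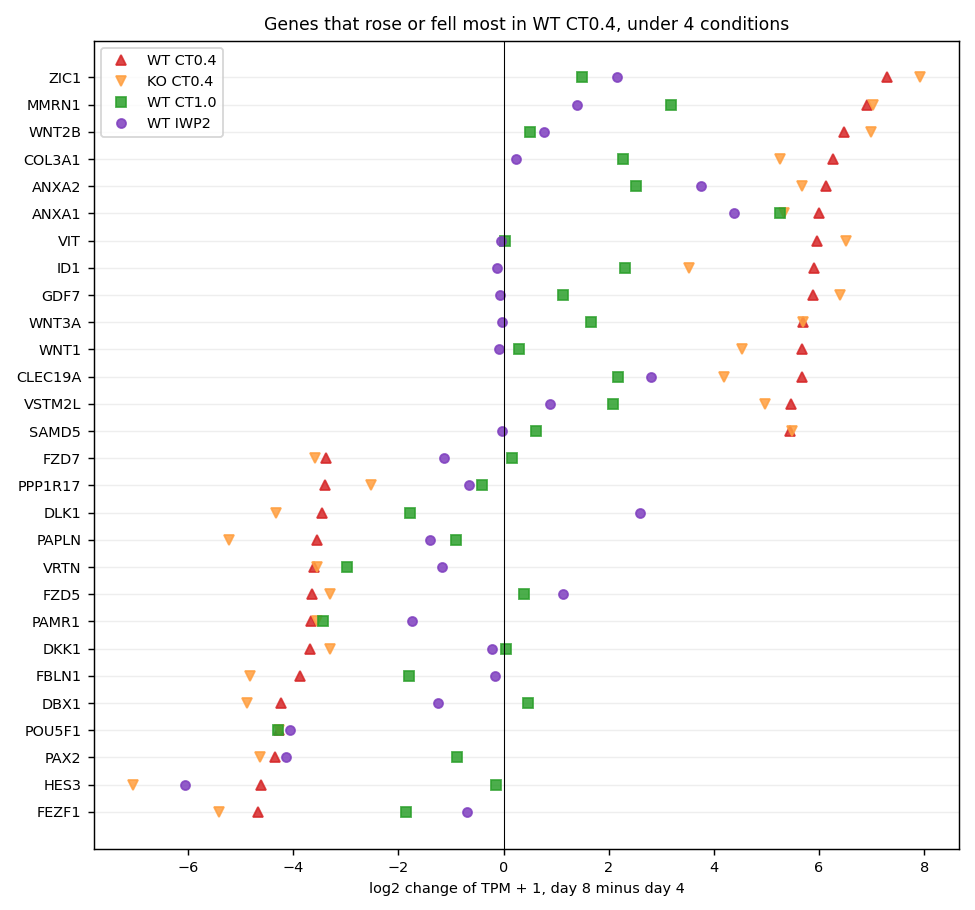
Log2 change from day 4 to day 8 of the 14 highest and 14 lowest genes of wild type under CT0.4, in wild type under CT0.4, KO under CT0.4, wild type under CT1.0 and wild type under IWP2. WNT3A is at 5.70 in wild type and 5.69 in KO under CT0.4, while ID1 is at 5.90 and 3.52 and HES3 at -4.62 and -7.04. Under CT1.0 and IWP2 WNT3A is at 1.66 and -0.02, and POU5F1, at -4.28 and -4.05, lies near its CT0.4 point of -4.27.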

How the data were processed

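Poly(A) RNA was sequenced from 28 libraries in 14 groups of 2. The authors deposited TPM per gene. The build hg38 and the tools Salmon 0.8.2 and CASAVA 1.7 are given by the submitters' processing notes, with no role for either tool. Reads came from HiSeq2000 or X-ten runs per the labels' protocols, which do not assign runs to libraries, so run and day cannot be told apart. Depth is unknown, since TPM does not hold it. Columns were matched to samples by name, with 0 left unmatched, and 275 gene names held by more than 1 row were not named.

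Genes with a TPM of at least 1 in 2 or more of the 4 libraries were tested with limma 3.58.1 (intensity trend) on log2(TPM + 1) in R 4.3.3 (with the package data.table, at version 1.17.8), with 1 mean per group over all 28 libraries (14 residual and 3.01 prior degrees of freedom), no covariate, and Benjamini-Hochberg adjustment over all genes tested. Differences between changes were contrasts of the same model. Every fit was repeated on columns scaled by median ratios. A 2 against 2 exact permutation test cannot go below 0.333, so none was used. The script was tested on simulated data. Library differences (replicate 1 minus 2) of day 4 and day 8 correlated at -0.016 over 10106 genes, so the numbers were not taken to pair the samples.

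The markers and the 34 gene lists were chosen with earlier results of these data known. Named by rule were the markers and SOX1, the 14 highest and 14 lowest genes called under both scalings, with an absolute log2 change of at least 1 and days that did not overlap (leaving out names of clones, pseudogenes, antisense, mitochondrial and ribosomal protein genes and the like), up to 5 called and 2 uncalled members per list, and the 6 highest and 6 lowest genes per difference. Other list members with values were chosen after their values were seen. Some genes that the lists or the rule include are counted but not reported here.

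Alternatives were a pseudocount of 0.1, no filter, 2 other filters, median-ratio scaling, only the libraries compared, the replicate number as a block, no trend with robust variances, an absolute log2 change of at least 1, and each library left out. Protein-coding genes alone and library quality weights were chosen after seeing the data. Promoter windows and motif searches used RefSeq sequences.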

Additional observations from a re-analysis of the deposited data

Results flagged for a closer look

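Each value here is the log2 change of wild type under CT0.4 minus that of another condition, from limma, and was picked out because the difference itself passed at an adjusted p under 0.05. Such differences were called for 2529 genes against CT1.0, 3639 against IWP2 and 355 against KO. Genes come from the naming rule for differences, plus the markers.

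Against CT1.0, the higher changes were those of COLEC12 (6.13), WNT2B (5.97), VIT (5.94), ZIC1 (5.79), SPOCK1 (5.49), WNT1 (5.39), LMX1A (5.01), GDF7 (4.76) and MSX1 (3.40). The lower ones were those of NTN1 (-5.22), IGFBP3 (-5.17), DBX1 (-4.70), CNTN2 (-4.67), PKDCC (-4.58), HES3 (-4.47) and PAX2 (-3.47). All 16 were also called after median-ratio scaling and without each library of CT0.4.

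Against IWP2, the higher changes were those of FGFR2 (7.07), ID1 (6.03), LMX1A (6.02), COL3A1 (6.02), TAC1 (6.02), VIT (6.01), GDF7 (5.97), WNT1 (5.77), MSX1 (4.75) and ANXA1 (1.61). The lower ones were those of DLK1 (-6.05), MPPED1 (-5.94), PAX8 (-4.93), FZD5 (-4.78), SPRY1 (-4.06) and FEZF1 (-3.96). Of these 16 genes, 16 were called after scaling and 15 without each library; ANXA1 was lost without replicate 1 of day 4 (adjusted p 0.0511).

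Against KO, the higher changes were those of PCDH8 (4.27), SLC16A3 (4.24), HES5 (3.93), BARHL1 (3.35) and DDIT4 (3.29). The lower ones were those of HIST1H2AJ (-2.89), PKDCC (-1.96), TDRD7 (-1.42), MAP1LC3C (-1.38), CADPS2 (-1.24) and CGRRF1 (-1.11). All 11 were called after scaling, but only BARHL1, SLC16A3 and PKDCC were called without each library of CT0.4. When only the 8 libraries compared were fitted with limma, 0 genes passed. There BARHL1, SLC16A3 and PKDCC had adjusted p of 0.124, 0.0996 and 0.124. PCDH8, DDIT4 and CADPS2 were lost without replicate 2 of day 8 (adjusted p 0.0531 for each). The others were lost without up to 4 libraries: HES5 up to 0.134, HIST1H2AJ up to 0.17, TDRD7 up to 0.209, MAP1LC3C up to 0.166 and CGRRF1 up to 0.176.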

How the results depend on the processing

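Median-ratio scaling changed the split of the day 8 against day 4 calls most, to 3323 higher and 3329 lower, and turned LIN28B, which did not pass as deposited (0.02), to -0.29 (adjusted p 0.0227). A minimum absolute log2 change of 1 left 2951 calls, 2468 higher and 483 lower, and 1415 differences against CT1.0, 1900 against IWP2 and 194 against KO. Leaving out each library in turn gave 5121 to 5877 calls (3980 to 4856 higher, 1021 to 1260 lower), 1623 to 2089 differences against CT1.0, 2317 to 3251 against IWP2 and 47 to 446 against KO. The KO count was also 209 without a filter, 234 with a TPM of at least 1 in 2 of 28 libraries, 219 without trend and with robust variances, and 0 with only the libraries compared, where 3087 genes had an unadjusted p under 0.05; apart from fewer libraries in the latter, the cause was not tested. With the replicate block there were 7377 calls (5814 higher, 1563 lower) and 2627, 3747 and 334 differences; with 2 pairs whose numbers are not known to mark a shared source, this pairing is a description only. Of 228 named genes, 224 kept their side of the threshold with the block, 205 after median-ratio scaling and 209 with only the libraries compared. A pseudocount of 0.1 kept 226. With only the 4 libraries of the main comparison fitted, 5299 genes were called between the days, 4142 higher and 1157 lower. TPM keeps no depth, so what counting noise adds to genes near 1 TPM is unknown.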
